A study of Mus musculus with 2 samples.

Results

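The S100 genes encode small calcium-binding proteins of the EF-hand type, and most of the S100a genes lie side by side on mouse chromosome 3. Inside cells they bind annexins, myosin and other targets when calcium rises. S100A8 and S100A9 form the heterodimer calprotectin, an abundant protein of neutrophils and monocytes that sequesters zinc and manganese and, once released, acts on Toll-like receptor 4 and on the receptor RAGE. In most inflamed tissues and cells both genes are transcribed together.

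Here 10 genes of this family, S100a1, S100a3, S100a4, S100a6, S100a8, S100a9, S100a10, S100a11, S100a13 and S100a16, were followed among the 23183 gene symbols measured in cultured mouse cavernous endothelial cells (MCECs). They were selected by gene symbol among the S100a genes and on their measured levels in these same libraries, so their values below are a description. By the higher of its 2 levels, the lowest member was S100a3, at 1.99 FPKM without and 3.12 FPKM with PC-NVs, and S100a9 was below it without PC-NVs. The highest gene left out, apart from the fused-type S100 genes, was S100b, at 1.07 and 1.14 FPKM. In these cells S100a8 was 6.62-fold higher after PC-NVs treatment and became the third member by level, S100a9 appeared only at a level 265-fold below that of S100a8, and the other 8 members stayed within 2-fold.

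RNA was sequenced from 1 library per condition. MCECs are primary cells grown out of the corpus cavernosum of 8-week-old male C57BL/6J mice and used between passages 2 and 4. Both cultures were kept in high glucose (HG, 30 mM), 1 with the vehicle HEPES-buffered saline (HG+HBS) and 1 with pericyte-derived nanovesicles at 1 µg/mL (HG+PC-NVs), which are particles made by pressing cultured cavernous pericytes through membranes. Cells were grown in medium with 20% serum, and for high-glucose cultures the methods describe 24 hours of serum starvation before the change of glucose. The methods place RNA isolation 72 hours after the change of glucose and 24 hours after PC-NVs, whereas 5 days of glucose stand in the sample labels. The libraries are called HBS and PC-NVs below. Values are normalized FPKM, fragments per kb of transcript scaled to library size, so levels of different genes are compared per length. A fold change is the ratio of (FPKM + 1) in HG+PC-NVs over HG+HBS, and a log2 ratio is its log2. With 1 library per condition no difference could be set against the spread between cultures, no p-value was computed, and an effect of PC-NVs cannot be told apart from any other difference between these cultures.

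As estimated from the steps between low values, the libraries corresponded to roughly 14400000 fragments with HBS and 12500000 with PC-NVs. The values were normalized before deposit, so these sizes include that scaling and are not counts of sequenced fragments. The cells were checked against their label. Of 15 endothelial markers, 6 reached 1 FPKM with HBS and 4 with PC-NVs. Eng (29.0 and 21.4 FPKM), Esam (17.4 and 11.7) and Egfl7 (9.48 and 8.57) were the highest of them. Others were low, with Pecam1 at 1.05 and 0.938 FPKM, Kdr at 0.518 and 0.438 and Vwf at 0.158 and 0.128, while Cdh5 was at 5.05 and 5.73. All 9 fibroblast markers were above 1 FPKM in both libraries, among them Thy1 (549 and 412 FPKM) and Col1a2 (312 and 198). Most of the endothelial markers were thus below 1 FPKM while fibroblast markers were high, and the material is called the MCEC culture below. In such a bulk library, more cells of a type and more RNA per cell cannot be told apart.

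The members fall into separate blocks of the S100 genes. S100a1, S100a13, S100a16, S100a3, S100a4, S100a6, S100a8 and S100a9 follow each other over 185 kb on chromosome 3, with S100 genes of lower level between some of them, and S100a11 and S100a10 lie 2.82 Mb further on. S100a8 (90668978 to 90670035, forward strand, GRCm38) and S100a9 (90692632 to 90695721, reverse strand) are neighbours, with 22596 bases between them and no other annotated S100 gene in that gap. The bases before their starts are shown because these are the only members past 2-fold. Capitals mark a match to the TATA box (TATAAA) or to the C/EBP motif (TTNNGCAA), searched on both strands together with the motifs of AP-1 (TGANTCA), STAT (TTCNNNGAA) and NF-kB. The sequences are RefSeq, build GRCm38.p6, and are written 5′ to 3′ on the strand of each gene. That of S100a8 leaves out the bases that GENCODE annotates as its first exon, apart from the last 30 before the RefSeq start.
S100a8, chr3:90668821-90668977: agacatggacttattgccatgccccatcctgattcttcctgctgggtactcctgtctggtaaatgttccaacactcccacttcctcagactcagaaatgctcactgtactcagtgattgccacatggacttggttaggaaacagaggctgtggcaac
S100a8, chr3:90669041-90669070: TATAAAagcagctgacacttagcctcacat
S100a9, chr3:90695722-90695971: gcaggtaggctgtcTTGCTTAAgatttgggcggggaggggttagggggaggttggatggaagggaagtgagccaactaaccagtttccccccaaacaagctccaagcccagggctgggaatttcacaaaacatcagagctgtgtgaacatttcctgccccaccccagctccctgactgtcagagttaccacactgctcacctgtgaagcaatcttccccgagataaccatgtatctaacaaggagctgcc

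In S100a8 the TATAAA match covered bases -30 to -25 before the RefSeq start, and in S100a9 it covered bases 1 to 6 after the start, outside the printed stretch. The TATAAA letters were found in 13.6% of 32544 windows of 300 bases around RefSeq starts, and in windows of 4 of the 9 members that had one, S100a3, S100a4, S100a8 and S100a9. The C/EBP letters were in 10.8% of all windows and, among the members, in that of S100a9 alone, at bases -236 to -229. The AP-1 letters were in 7.79% of all windows and in those of S100a11 and S100a16. The letters of STAT (8.33% of windows) and NF-kB (8.49%) were in none of the members' windows. S100a10 had no entry.

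S100a8 encodes the calprotectin subunit that is also called MRP8. Its level was 238 FPKM with HBS and 1579 FPKM with PC-NVs, or 7.90 and 10.63 on the log2(FPKM + 1) scale. The log2 ratio was 2.73, and the FPKM ratio of 6.64 had a 95% Wilson interval of 6.22 to 7.09 from about 1049 and 5853 fragments. Such intervals cover counting error only. By level S100a8 moved from rank 294 to rank 48 among all symbols. It was thus an expressed gene without PC-NVs, and its log2 ratio ranked 35 among the 12109 genes with at least 1 FPKM in at least one library.

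S100a9 encodes the other subunit, MRP14, which stabilizes S100A8 in the heterodimer. It was listed at 0.00323 FPKM with HBS, which is less than 1 fragment, and at 5.96 FPKM with PC-NVs, about 24.3 fragments. It has 2 deposited rows, and both were higher with PC-NVs, at 4.72 and 1.24 FPKM. Against the limit of 3 fragments with HBS, 0.620 FPKM, S100a9 as measured was at least 9.60-fold higher. That figure leaves out the counting error of the PC-NVs library, and the 95% Wilson interval of the FPKM ratio reached down to 7.43. Its log2 ratio of 2.79 depends on the added 1 and is no measure of size beyond that bound, and it entered the comparison only through its level with PC-NVs.

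The subunits were therefore far from equal in mRNA. The level of S100a8 was 265 times that of S100a9 with PC-NVs and at least 383 times with HBS, taken against the limit of 3 fragments. In absolute terms, S100a8 gained 1342 FPKM and S100a9 gained 5.95 FPKM.

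**Figure D1:**
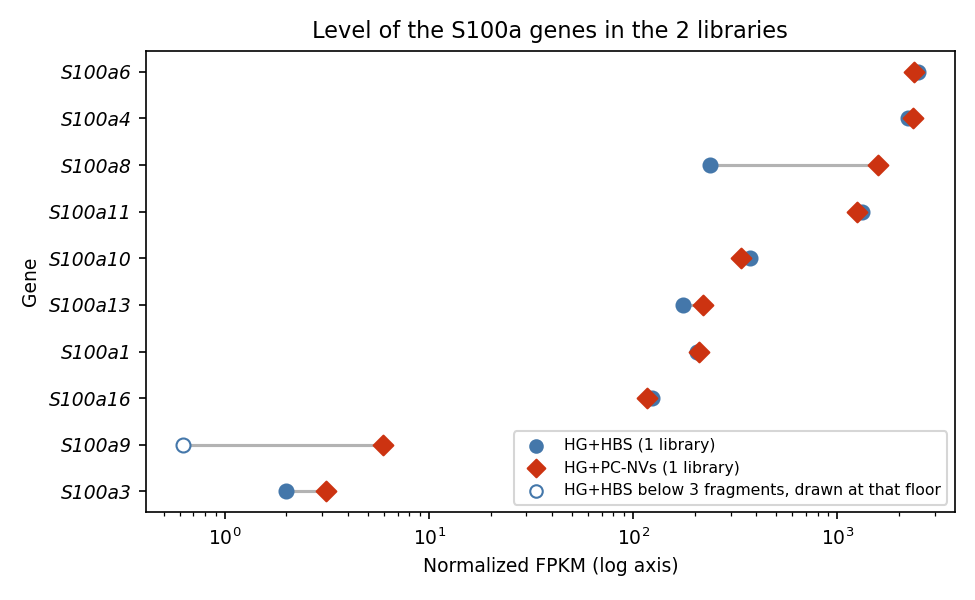
Normalized FPKM (log axis) of each S100a gene in the HG+HBS library (blue circles) and the HG+PC-NVs library (red diamonds), with 1 library per condition. S100a8 moved from 238 to 1579 FPKM and S100a9 from below 3 fragments, drawn as an open circle at 0.620 FPKM, to 5.96 FPKM, while the symbols of most other genes touch.

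Of the 10 members, 2 were more than 2-fold higher with PC-NVs, S100a8 and S100a9, and 0 were more than 2-fold lower. S100a9 reached 1 FPKM with PC-NVs only and so had to be higher there. With at least 1 FPKM asked in both libraries, 1 member was more than 2-fold higher, S100a8. Over all 12109 genes of at least 1 FPKM in at least one library, 2.52% were more than 2-fold higher and 0.867% more than 2-fold lower. The median log2 ratio of the members was 0.058, against -0.0099 for all genes tested. The study asked for more than 4-fold and a log2 value above 6, taken here as above 6 in both libraries. By these, 1 of the 8 members above that level was higher, S100a8, and the share over all 1191 such genes was 0.588%. S100a8 ranked 6 of the 7 genes past these thresholds by log2 ratio, between C3 and Ccl7.

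**Figure D2:**
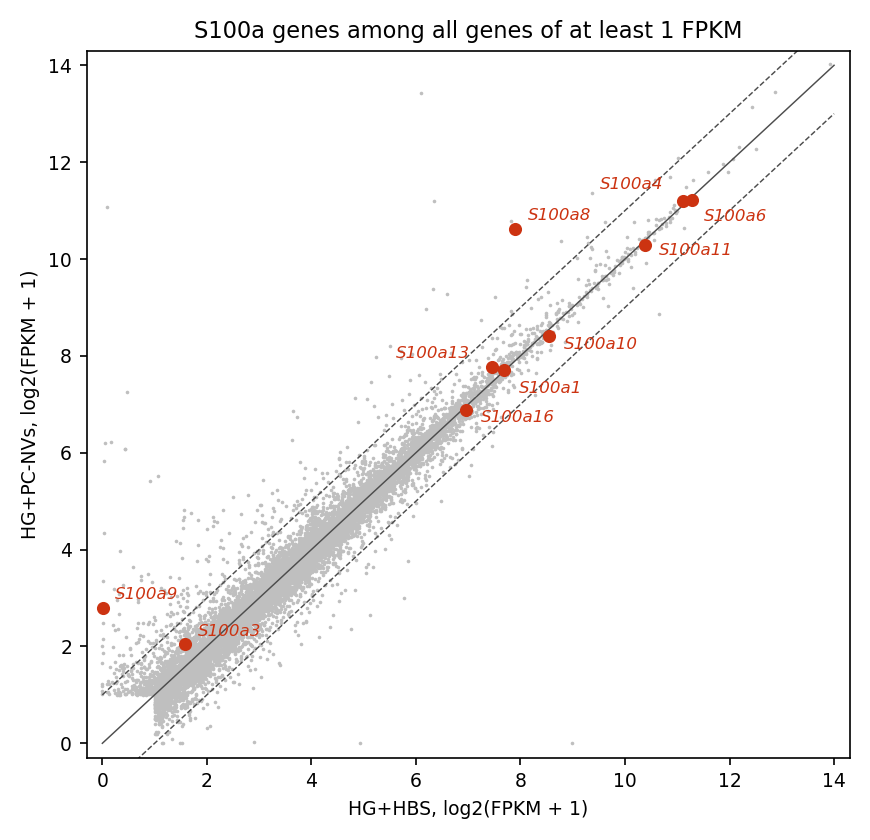
Each point is a gene of at least 1 FPKM in at least one library, by its log2(FPKM + 1) with HBS and with PC-NVs; the solid line marks equal values, the dashed lines a 2-fold change, and the S100a genes are in red. S100a8 (7.90 and 10.63) and S100a9 (0.00 and 2.80) lie above the upper dashed line, and the other 8 lie between the lines.

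The most abundant members were S100a6 and S100a4. S100A6, or calcyclin, binds the calcyclin-binding protein CACYBP, and S100A4 binds nonmuscle myosin and is used as a fibroblast marker. S100a6 was at 2484 FPKM with HBS and 2382 FPKM with PC-NVs, rank 11 and rank 18 of all symbols. S100a4 was at 2209 and 2343 FPKM, rank 16 and rank 19. Both were thus among the 20 highest genes of either library, with log2 ratios of -0.061 and 0.085. The sign for S100a4 turned to -0.15 after quantile normalization between the libraries, which also moved S100a6 to -0.43. S100a4 overlaps the annotated gene Gm42674 on the same strand, so its fragments may be shared with it.

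S100a11 and S100a10 encode the partners of annexins A1 and A2. S100a11 was at 1327 FPKM with HBS and 1253 FPKM with PC-NVs, a log2 ratio of -0.083. S100a10 was at 375 and 338 FPKM, a log2 ratio of -0.15 with a 95% interval of the FPKM ratio from 0.845 to 0.961. It was the lowest ratio of the 10 members as deposited. After quantile normalization it was -0.42, next to the -0.43 of S100a6.

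S100a1, S100a13 and S100a16 formed the middle of the range. S100A1 is best known from heart muscle, where it acts on calcium release and uptake, and S100A13 takes part in the release of FGF1 and IL-1α. S100a1 was at 205 FPKM with HBS and 209 FPKM with PC-NVs, and its log2 ratio of 0.031 turned negative after quantile normalization (-0.11) and marginally after upper-quartile scaling. S100a13 was at 175 and 219 FPKM, with a log2 ratio of 0.32 and a 95% interval of the FPKM ratio of 1.16 to 1.35. S100a16 was at 124 and 117 FPKM, with an interval of 0.870 to 1.03. Leaving out S100a8, S100a9 and the sparse S100a3, S100a13 thus had the largest ratio, and 18.6% of the 1191 genes whose log2 values both exceeded 6 differed by as much or more in either direction. S100a1 and S100a13 start 42 bases apart on opposite strands, and their 300-base promoter windows share 204 bases. Their levels were close with HBS, and their counting intervals for the FPKM ratio, 0.944 to 1.11 for S100a1 and 1.16 to 1.35 for S100a13, did not overlap.

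S100a3, best known from hair follicles, was the lowest member with PC-NVs and the lowest but S100a9 with HBS, at 1.99 FPKM with HBS and 3.12 FPKM with PC-NVs. The FPKM ratio of 1.57 had a 95% interval of 0.748 to 3.30, from about 11.7 and 15.5 fragments, so a change was not detectable at this depth. Its annotated span also holds S100a2 and overlaps Gm42674.

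**Figure D3:**
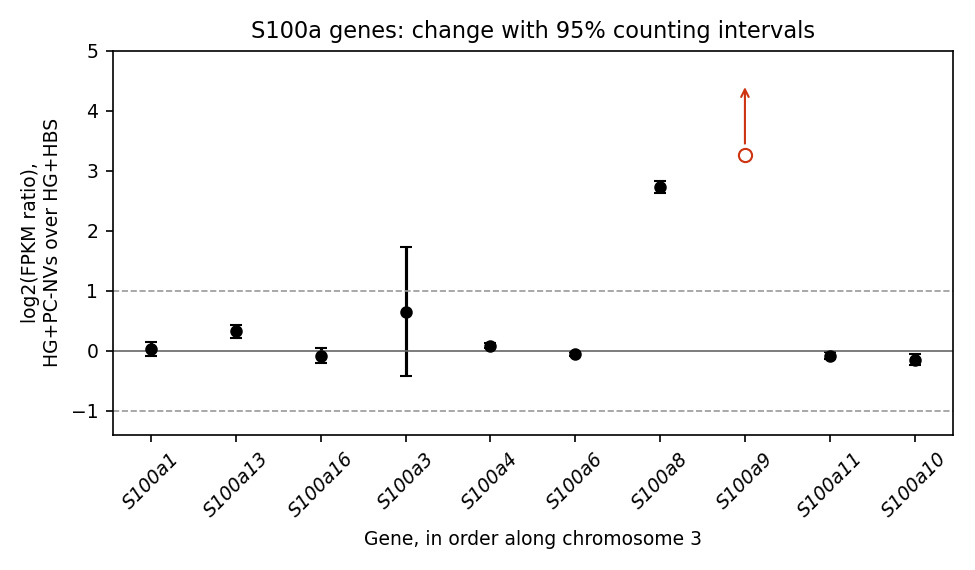
Log2 of the FPKM ratio of HG+PC-NVs over HG+HBS for each S100a gene, in their order along chromosome 3, with 95% Wilson counting intervals as bars; dashed lines mark a 2-fold change. S100a8 lies at 2.73, the open symbol with an arrow sets the measured S100a9 level against 3 fragments with HBS (9.60-fold) and is not the end of its Wilson interval (7.43-fold), and the interval of S100a3 is the widest of the other 8.

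By their sum, the 10 members made up 1.37% of all summed FPKM with HBS and 1.45% with PC-NVs. S100a8 accounted for 3.33% of the members' sum with HBS and for 18.7% with PC-NVs. Without S100a8 the members summed to 6900 and 6869 FPKM, a ratio of 0.995. S100a4 was 9.29 times as abundant as S100a8 with HBS and 1.48 times with PC-NVs. In the order of levels, S100a8 went from the fifth place, behind S100a6, S100a4, S100a11 and S100a10, to the third.

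Other S100 genes were near the detection limit. Of 8 further S100 genes, 7 were listed and 2 reached 1 FPKM in either library, S100b and S100a7a, with 0 past 2-fold. S100a7a, the annotated S100 gene on the near side of S100a8, was at 1.00 FPKM with HBS and 0.886 FPKM with PC-NVs, about 15.9 and 12.1 fragments, with a 95% interval of the FPKM ratio of 0.425 to 1.83. S100a5 was listed at 0.00182 and 0.684 FPKM, the latter about 2.03 fragments. Of 7 fused-type S100 genes, which encode large cornified-envelope proteins, 6 were listed, and Tchh alone reached 1 FPKM, at 1.58 and 2.12 FPKM.

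Genes nearest to S100a8 and S100a9 were taken by the distance between their pairs of log2(FPKM + 1) values, over the 2 libraries and thus over 2 points per gene. The gene nearest to S100a8 was the chemokine gene Ccl2, 224 FPKM with HBS and 1768 FPKM with PC-NVs, at a distance of 0.18. The next was much further, with Ldha at 0.92, Mmp10 at 1.08, Pdpn at 1.23 and Grem1 at 1.33. Around S100a9 lay Pet117 (distance 0.0079), Nos2 (0.04), U90926 (0.31), Bcl2a1a (0.32) and Siglece (0.34). Like S100a9, these genes reached 1 FPKM with PC-NVs only. The added 1 keeps their HBS values near 0 on the log2 scale, so short distances say little about their HBS levels. Nos2, inducible nitric oxide synthase, was listed at 0.0209 and 5.78 FPKM.

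Receptors and binding partners of S100 proteins mostly differed by less than 2-fold between the libraries. Of 11 receptor genes, 9 were tested, with a median log2 ratio of 0.12. Among these, 1 was more than 2-fold higher and 0 lower, against 2.52% and 0.867% of all genes tested. The 1 was Cd14, the coreceptor of TLR4, at 36.6 FPKM with HBS and 251.8 FPKM with PC-NVs, a log2 ratio of 2.75. Tlr4 itself was at 23.9 and 35.0 FPKM, and its partner Ly96 at 23.4 FPKM in both. Ager, which encodes RAGE, was below 1 FPKM in both libraries, at 0.401 and 0.412. Bsg, a proposed receptor of S100A9, was the highest of the list at 629 and 755 FPKM. Mcam reached 1 FPKM with HBS only, at 1.21 and 0.855 FPKM, and so had to be lower with PC-NVs.

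Of 18 genes for intracellular targets, 16 were tested and 0 passed 2-fold in either direction, with a median log2 ratio of -0.030. Anxa2, the partner of S100A10, was at 663 and 671 FPKM. Anxa1, the partner of S100A11, was at 815 and 521 FPKM, a log2 ratio of -0.64. Ahnak, which binds the S100A10 and annexin A2 complex, was at 71.3 and 43.7 FPKM, a log2 ratio of -0.70. Myh9, a target of S100A4, was at 116 and 86.7 FPKM, and Fgf1, cargo of S100A13, at 3.04 and 1.41.

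Some cytokines known to induce S100a8 and S100a9 were higher with PC-NVs. The list of 12 such genes was written with earlier results of these data known. Of the 12, 6 had at least 1 FPKM in at least one library, and all 6 were more than 2-fold higher, against 2.52% of all genes tested. But only Il6 and Lif reached 1 FPKM with HBS, so that the other 4 passed the filter through PC-NVs alone and had to be higher there. Il6 was at 1.09 FPKM with HBS and 45.1 FPKM with PC-NVs, and Lif at 11.5 and 115 FPKM. Csf3, which encodes G-CSF, was at 0.390 and 150.7 FPKM, about 6.92 and 2308 fragments. Tnf (0.245 and 2.52 FPKM), Il1a (0.193 and 1.89) and Il1b (0.0615 and 1.35) stayed low in both. Il10 and Osm were below 1 FPKM in both libraries, and Csf2, Il17a, Il22 and Ifng were listed at 0 in both.

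Of 17 transcription factor genes linked to these promoters, 16 were tested, 5 were more than 2-fold higher and 0 lower, with a median log2 ratio of 0.79. Over all genes tested, 2.52% were more than 2-fold higher and 0.867% lower. This list, too, was written with earlier results of these data known. The 5 were Nfkbiz (2.58), Hif1a (1.07), Relb (1.04), Cebpb (1.03) and Fos (1.03) on the log2 scale. After upper-quartile scaling, Relb came to 1.01 and Fos to 1.00, at the limit of 2-fold. Cebpb encodes a C/EBP factor of the S100a8 and S100a9 promoters and was at 88.8 and 182 FPKM. It came to 0.94, inside 2-fold, after quantile normalization. Cebpd was at 129 and 239 FPKM, a log2 ratio of 0.89. Cebpa, on the same list, was lower with PC-NVs, at 11.9 and 8.42 FPKM, a log2 ratio of -0.45. From its highest row alone, the ratio of Cebpa was -3.36. Cebpe was below 1 FPKM in both libraries.

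**Figure D4:**
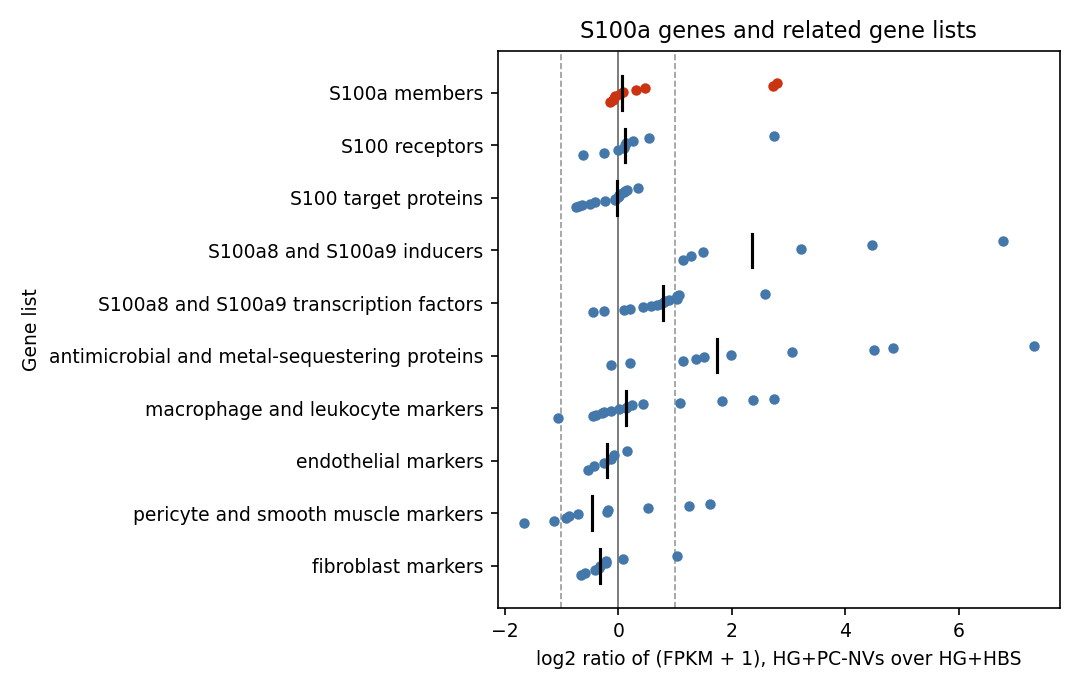
Log2 ratio of (FPKM + 1), HG+PC-NVs over HG+HBS, of each gene of at least 1 FPKM in at least one library, by gene list, for the lists with at least 6 such genes; black bars are medians and dashed lines a 2-fold change. The S100a members lie near 0 except for S100a8 and S100a9. S100a9, 4 of the 6 inducers and 2 of the 10 antimicrobial genes reached 1 FPKM with PC-NVs only. Mcam (receptors), Pecam1 and Flt1 (endothelial) and Des (pericyte) did so with HBS only. The filter fixed the direction of all these genes, so the bars of their lists are not to be compared.

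Proteins that, like calprotectin, sequester metals or act against microbes formed another list, written with earlier results of these data known. Of 15 genes, 10 were tested, 8 were more than 2-fold higher and 0 lower, against 2.52% and 0.867% of all genes tested. Of the 8, Camp and Hp reached 1 FPKM with PC-NVs only and so had to be higher there. Lcn2, which captures iron-loaded siderophores, was at 80.4 and 2334 FPKM. Camp, the cathelicidin gene of neutrophil granules, was at 0.871 and 41.4 FPKM, about 7.25 and 295 fragments. The metallothionein genes Mt1 (784 and 1737 FPKM) and Mt2 (661 and 2631 FPKM) bind zinc, and Slc39a14, a zinc and manganese transporter, was at 17.5 and 46.8 FPKM. Mt1 came to a log2 ratio of 0.97, inside 2-fold, after quantile normalization.

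Since neutrophils and monocytes are the usual source of S100a8, their markers were set beside it. Of 15 neutrophil markers, 14 were listed and 2 were tested, with 1 more than 2-fold higher, Camp, and 0 lower. Their summed level was 2.77 FPKM with HBS and 43.3 FPKM with PC-NVs, of which Camp alone made up 41.4. Mpo, Ctsg, Retnlg, Stfa2l1 and Fcnb were listed at 0 in both libraries, Elane and Itgb2l were below 0.01 FPKM in both, and Csf3r and Cxcr2 did not reach 1 FPKM. Prtn3 was at 1.06 and 0.413 FPKM, and Mmp8 at 0.273 and 0.847. Of the 2 tested genes, Camp reached 1 FPKM with PC-NVs only and Prtn3 with HBS only, so the filter fixed the direction of both. The list thus held genes at 0 beside Camp, which was higher with PC-NVs as S100a8 was, and the part of neutrophils in the level of S100a8 was not tested.

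Macrophage and leukocyte markers were present in both libraries. All 15 reached 1 FPKM in both, with a summed level of 416 FPKM with HBS and 664 FPKM with PC-NVs. Cd14 alone made up 36.6 and 251.8 FPKM of these sums. By any amount, 9 of the 15 were higher with PC-NVs and 6 lower. More than 2-fold higher were 4 and lower 1, against 2.52% and 0.867% of all genes tested. Cd14, Adgre1 (7.44 and 42.5 FPKM), Aif1 (2.93 and 12.9) and Fcer1g (18.8 and 41.1) were higher. Mrc1 was lower, at 3.76 and 1.27 FPKM. Ptprc (1.44 and 1.67 FPKM), Lyz2 (212 and 193), Csf1r (8.39 and 6.20) and Tyrobp (29.4 and 29.5) stayed within 2-fold, and the median log2 ratio of the list was 0.13. The part of these cells in the level of S100a8 was not tested.

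S100a8 is also a gene of inflamed keratinocytes. Of 12 epithelial and keratinocyte markers, 1 reached 1 FPKM, Krt18, at 9.61 FPKM with HBS and 2.05 FPKM with PC-NVs. The summed level of the list was 10.8 and 2.70 FPKM, and Krt5, Krt14, Krt6a and Cdh1 were listed at 0 in both libraries.

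Stromal markers went in both directions. Of 12 pericyte and smooth muscle markers, 10 were tested, 2 were more than 2-fold higher (Rgs5 and Kcnj8) and 2 lower (Acta2 and Tagln). The shares of all genes tested were 2.52% higher and 0.867% lower. The summed level of this list went from 147 to 109 FPKM. The fibroblast markers, which include S100a4, summed to 4277 and 4711 FPKM, with Dcn more than 2-fold higher (623 and 1283 FPKM) and a median log2 ratio of -0.31. Dcn came to 0.82 after quantile normalization. The tested endothelial markers had a median of -0.19 with 0 past 2-fold, and the sum of the list was 66.2 and 51.3 FPKM. Among them Pecam1 and Flt1 (1.19 and 0.835 FPKM) reached 1 FPKM with HBS only, so they had to be lower with PC-NVs. The same held for Des (1.07 and 0.137 FPKM) among the pericyte and smooth muscle markers. The part of these cells in the S100a levels was not tested.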

How the data were processed

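RNA of the HG+HBS and HG+PC-NVs cultures of MCECs, 1 library each, was read with a stranded paired-end kit after poly(A) selection. Reads were trimmed by the authors, who mapped them with TopHat (mm10 in the submitters' processing notes), derived FPKM with Cufflinks and normalized with edgeR in R, naming quantile normalization; versions, annotation and use of strand are not given in the sources used here. The authors deposited log2 values, log2(normalized FPKM + 1), for 33299 rows, with no counts. Sorted values of the libraries differed by more than 0.05 in 2318 rows.

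Rows were converted to FPKM and summed per symbol, as deposited. The 10 members and all lists were chosen with earlier results of these data known. Named genes were the members, list genes past 2-fold or with a role beside a member, and the 5 genes nearest to S100a8 and to S100a9. The FPKM worth of 1 fragment, and a shortening of transcripts at their ends, were fitted to low values of genes with 1 transcript of at least 400 nt in GENCODE M21 (GRCm38), which also gave coordinates and lengths. The fitted shortening was 180 nt in HG+HBS and 190 nt in HG+PC-NVs, and a further peak stood at 1.99 and 2.00 times the first. The median length of the protein-coding transcripts of a gene was used, so fragment numbers are approximate. Intervals are 95% Wilson intervals, and 3 fragments were taken as the floor. Promoter windows hold 250 bases before and 50 after a RefSeq start. Scripts were tested on simulated data. Python 3.11.15, numpy 2.4.6, pandas 2.3.3 and matplotlib 3.10.9 were used. Alternatives covered normalization, pseudocount, filter, rows and the log2 threshold.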

Additional observations from a re-analysis of the deposited data

How the results depend on the processing

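S100a8 stayed more than 4-fold higher under every normalization and pseudocount tried. Its log2 ratio was 2.55 after quantile normalization, outside its counting interval, and 2.69 to 2.74 under the others. S100a8 has 1 deposited row, so the choice of row could not change it. Members past 2-fold numbered 2 under all alternatives but the filter of 1 FPKM in both libraries, which left out S100a9 and gave 1. The members' median log2 ratio was 0.058 as deposited, -0.13 after quantile normalization, 0.025 with upper-quartile scaling, 0.068 with median centring and 0.031 with that filter. Of 40 alternative values of the other 8 members, 34 stayed within their counting interval, and 3 changed sign, of S100a1 and S100a4. Each of the 8 has 1 deposited row, so the values from the highest row could not move. All values outside the interval came from quantile normalization, those of S100a1, S100a4, S100a6, S100a10, S100a11 and S100a13. Genes more than 2-fold lower numbered 253 with a pseudocount of 0.1, against 105. Where a single library had to exceed a log2 of 6, genes past 4-fold numbered 25 higher and 1 lower, against 7 and 0, and after quantile normalization 1 was lower. The cause of these shifts was not tested. The log2 ratio of S100a9 was 5.87 with a pseudocount of 0.1 and 2.51 from its highest row alone. Chosen after seeing the data, full transcript lengths in place of fitted ones moved the lower bound of the S100a8 interval to 6.31. S100a9 and S100a3 rest on under 30 fragments per library. No paired analysis was possible because each condition had a single library, which also left no replicate to leave out.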
